A study of Homo sapiens with 4 samples.

Results

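The genes described here are 42 genes of apoptosis: BCL2 family members, caspases, inhibitor of apoptosis proteins (IAPs), death receptors and the factors that link them. They were chosen by name and not by their values, though with earlier results of these data known. All 42 were among the 18668 loci with at least 1 fragment in any library. Cells can enter apoptosis by an intrinsic route, in which BH3-only proteins engage the guardians of the BCL2 family and free the effectors BAX and BAK1 to permeabilise the outer mitochondrial membrane. Cytochrome c released into the cytosol then assembles the apoptosome on APAF1, which activates caspase-9. In the extrinsic route, death receptors at the cell surface recruit adaptors and initiator caspases, and in colon epithelium both routes take part in the turnover of cells and in the response to damage.

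The HT-29 line comes from a human colorectal adenocarcinoma, and NCM460 cells are a colon epithelial line that the study used as its normal counterpart. Each line was sequenced without treatment and after 24 h with 100 μg/mL of sturgeon chondroitin sulfate (SCS), a sulfated polysaccharide of the kind found in cartilage. There was 1 library per condition, 4 in all, and the sources do not give the harvest time of the controls. Because there were no replicates, no difference between conditions has a replicate check, and no p-value within a line is given. The HT-29 libraries held 1654803 fragments (control) and 1605439 (SCS), and the NCM460 libraries held 1347875 (control) and 1156612 (SCS). Mitochondrial transcripts took 35.8%, 13.8%, 62.3% and 46.3% of these in the same order, which left 1061739, 1383491, 507712 and 621626 nuclear fragments. The 42 genes together held 2643, 3547, 815 and 1201 fragments.

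Fragments were scaled to CPM, the usual depth-scaled count, on an effective library size. A log2 fold change compares the CPM of 1 library with another after a prior count of 2. Its 95% interval, given in brackets, is an exact Clopper-Pearson interval, and it covers counting error only. A gene counted as tested at a mean of at least 1 CPM over the compared libraries. It was called, and is said to have risen or fallen, when it differed by more than 1.5-fold and its interval left out 0. A floor of 3 fragments, the upper limit that a count of 0 allows, stood at 1.47, 1.25, 3.85 and 2.77 CPM in these 4 libraries, named in that order. A fold given against this floor leaves out the counting error of the other library, so the limit of the interval can be nearer to 0. Fewer than 10 fragments were counted for 7, 9, 21 and 17 of the 42 genes in the same order, so smaller changes could be resolved in HT-29 cells than in NCM460 cells. In bulk RNA, fewer cells that express a gene and less of its RNA per cell cannot be told apart.

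The change in NCM460 cells ran with the GC content of the transcripts. Across 12566 loci, Spearman's rho between GC content and log2 fold change was -0.634, and it was -0.576 across the 40 members tested. Between the controls it was -0.502 across 12609 loci and -0.635 across the 40 members tested. Across HT-29 loci rho was -0.124 (12071 loci), with -0.13 for the 38 members tested. Genes are not independent replicates, and the loci of a comparison share their libraries, so these are descriptions. For the 42 genes, log2 fold changes with a smooth GC trend subtracted, named adjusted values below, are therefore given beside those printed for NCM460 cells and for the controls. This step was chosen after earlier results of these data were known. What part GC content had in any single change was not tested.

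**Figure D1:**
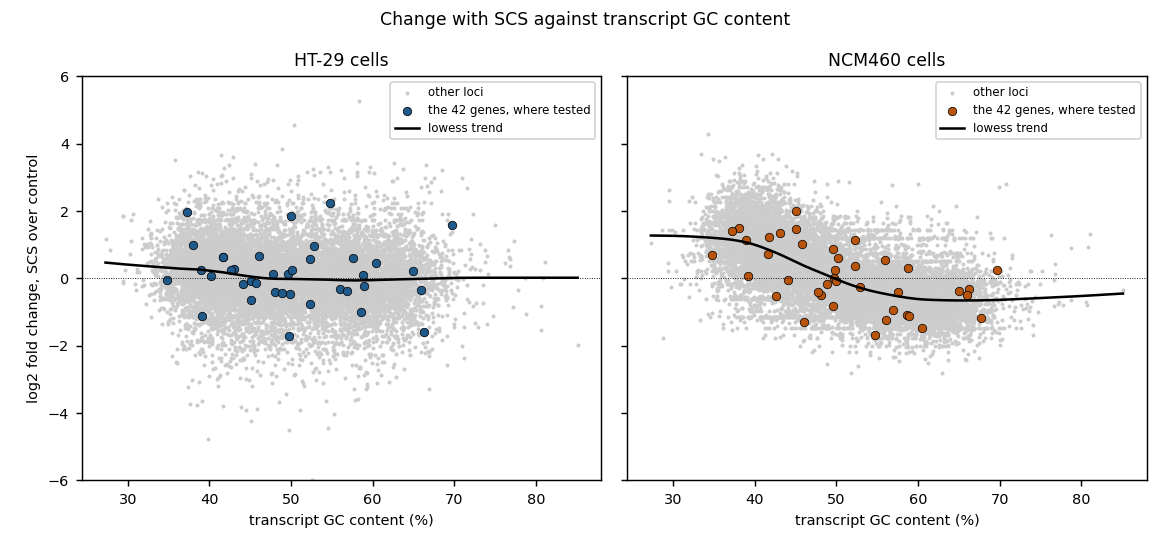
Log2 fold change with SCS (vertical axis) against transcript GC content in percent (horizontal axis) in HT-29 and NCM460 cells, with members coloured, other loci grey and the smooth trend as a line. The trend falls in NCM460 cells (rho -0.634) and is shallow in HT-29 cells (rho -0.124).

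Markers of cell identity were read in the same libraries. Of 12 colon epithelium markers, 10 had fragments, and their sum was 13361 and 8589 fragments in the HT-29 libraries, control first, and 3385 and 2876 in the NCM460 libraries, or 6531, 3576, 4344 and 2659 CPM. KRT8 was the marker with the most fragments in HT-29 cells (7024 and 3518), and it led KRT19 in the NCM460 control (1406 against 1285) but not with SCS (1117 against 1150). The smaller sum with SCS in HT-29 cells lay mostly in KRT8 and KRT18 (4453 and 2676). Of the 9 markers tested there, 4 were called lower and 4 higher. KRT19 (720 and 375) and VIL1 (138 and 24) also had fewer fragments with SCS, while KRT20 (119 and 306), CDH1 (267 and 526), LGALS4 (138 and 464) and CEACAM5 (10 and 95) had more. In NCM460 cells 6 markers were tested, of which 3 were called lower and 1 higher, or 1 and 1 with the GC trend subtracted. EPCAM went from 36 to 126 fragments there. CDX1 and TFF3 were at 0 in every library, CDX2 was at 0 in both HT-29 libraries, and KRT20, VIL1, LGALS4 and CEACAM5 were at 0 in both NCM460 libraries. Epithelial keratins and EPCAM were thus present in both lines, while those 4 markers were not detected in NCM460 cells.

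Of 10 mesenchymal markers, 6 had fragments, with sums of 13, 25, 97 and 145. SPARC led this list in NCM460 cells, at 65 and 102 fragments, and was at 0 in HT-29 cells, while COL1A2, COL3A1, CDH2 and DCN were at 0 throughout. Leukocyte markers had fragments for 4 of 7 genes, with sums of 1255, 945, 474 and 624, nearly all from CD68 and, in HT-29 cells, LYZ. The leukocyte genes PTPRC, CD3E and CD14 were at 0 in every library. All 4 endothelial markers had a few fragments, with sums of 6, 4, 7 and 2. The part of cell identity in the results below was not tested.

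Levels of different genes were compared by the deposited FPKM, which is scaled by transcript length. MCL1 had the highest FPKM of the 42 genes in both HT-29 libraries (48.0 in the control and 38.7 with SCS) and in treated NCM460 cells (41.0), and BCL2L1 in the NCM460 control (56.0). Both are guardians, and the class held the highest median FPKM in each library, at 38.9, 24.4, 28.3 and 32.0. BCL2 itself stood apart from its class, with no fragment in 3 libraries and 2 fragments in NCM460 with SCS. Among effectors, BAX was first in every library, with FPKM values of 43.5, 35.2, 31.8, 13. At the low end, BIK and HRK had 0 fragments in the HT-29 control, TNFSF10 had 0 in both NCM460 libraries, and CASP6 had 0 in the NCM460 control.

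**Figure D2:**
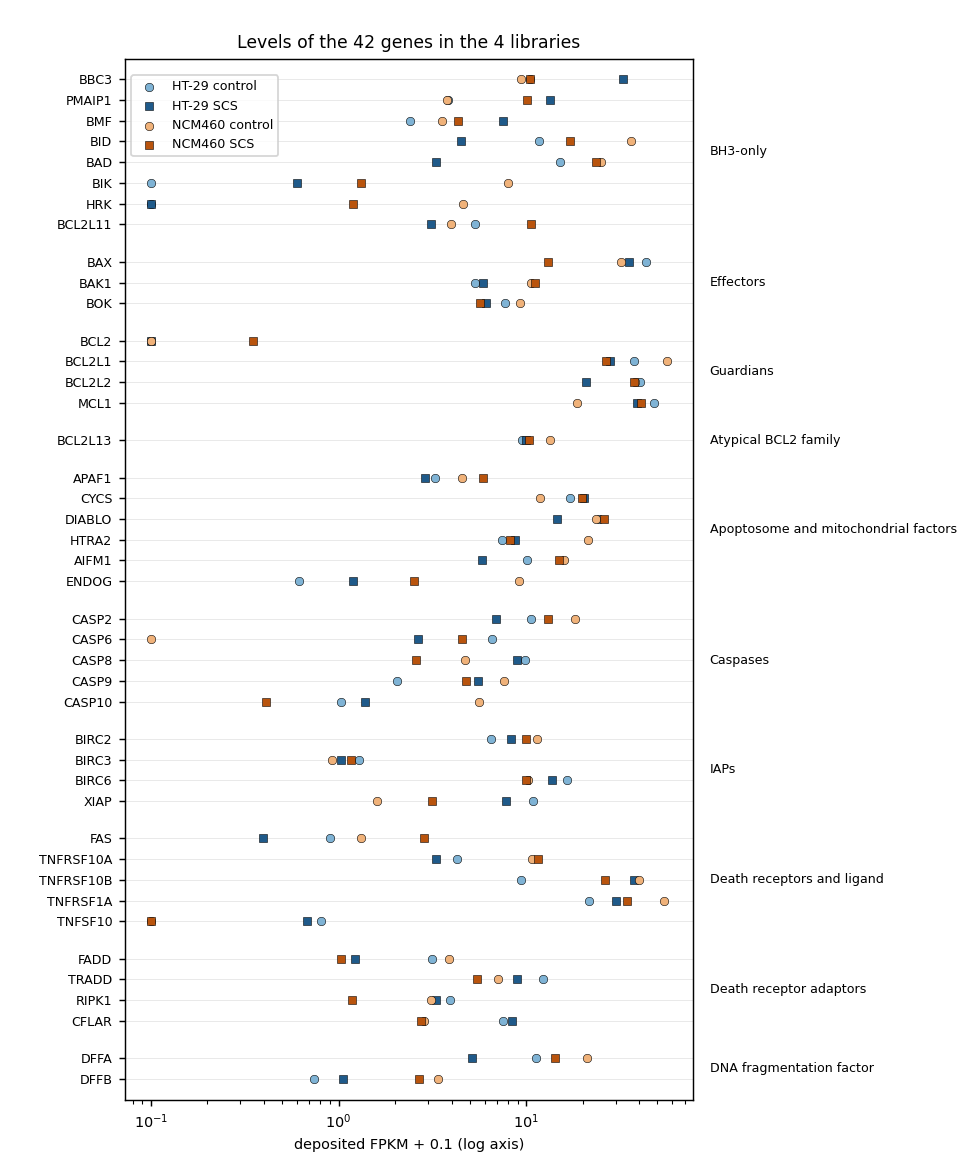
Deposited FPKM plus 0.1 (log axis) of the 42 genes by class, with circles for controls and squares for SCS, blue for HT-29 and orange for NCM460 cells. The guardians BCL2L1 and BCL2L2 are among the 7 highest in every library, MCL1 is first in 3 and at rank 11 in the NCM460 control, and BCL2 lies at 0 in 3 of 4.

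With SCS, 38 of the 42 genes were tested in HT-29 cells. Of these, 7 rose (18.4%, beside 16.8% of all 12179 loci tested) and 3 fell (7.89%, beside 14.8% of all loci). The share that rose was thus near that of all loci, and the share that fell was lower. Their median log2 fold change was 0.11 (-0.23 to 0.29, from order statistics), and that of all loci was 0.07. BIK, HRK, BCL2 and ENDOG were below the level for testing.

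In NCM460 cells 40 genes were tested, all but BCL2 and TNFSF10. There were 6 rises (15%, beside 15.3% of 12668 loci) and 4 falls (10%, beside 13.7%). Their median was -0.02 (-0.40 to 0.56, from order statistics), beside 0.03 for all loci. Intervals from order statistics take genes as units, and these share their libraries, so they describe the spread over genes only. After the GC trend was subtracted, 4 rose and 2 fell, that is 10% beside 6.19% and 5% beside 6.40% of 12566 loci, and the median was 0.05. Apart from the rises after the GC trend was subtracted, the shares of members called in NCM460 cells were at or below those of all loci.

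When total counts alone set the scale, the median of all loci moved by 0.24 in HT-29 cells and 0.60 in NCM460 cells, and 9 members rose and 2 fell in HT-29 cells, 16 and 0 in NCM460 cells. All loci then split into 3151 higher and 1116 lower in HT-29 cells, in place of 2051 and 1800, and 3944 and 248 in NCM460 cells, in place of 1941 and 1738. Scaling by nuclear counts moved the median of all loci by -0.15 and 0.14, with 5 members higher and 5 lower in HT-29 cells. In NCM460 cells 9 were then higher and 3 lower. All loci split into 1508 and 2308, and 2383 and 1237, under that scaling. By the authors' own scaling, the median of NCM460 loci moved by -0.13, with 3 members higher and 5 lower and 1577 and 2178 among all loci. DESeq2's size factors gave 3 members higher and 4 lower in NCM460 cells, with 1669 and 2030 among all loci. A 2-fold threshold gave 5 members higher and 3 lower there, with 1684 and 987 among all NCM460 loci.

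**Figure D3:**
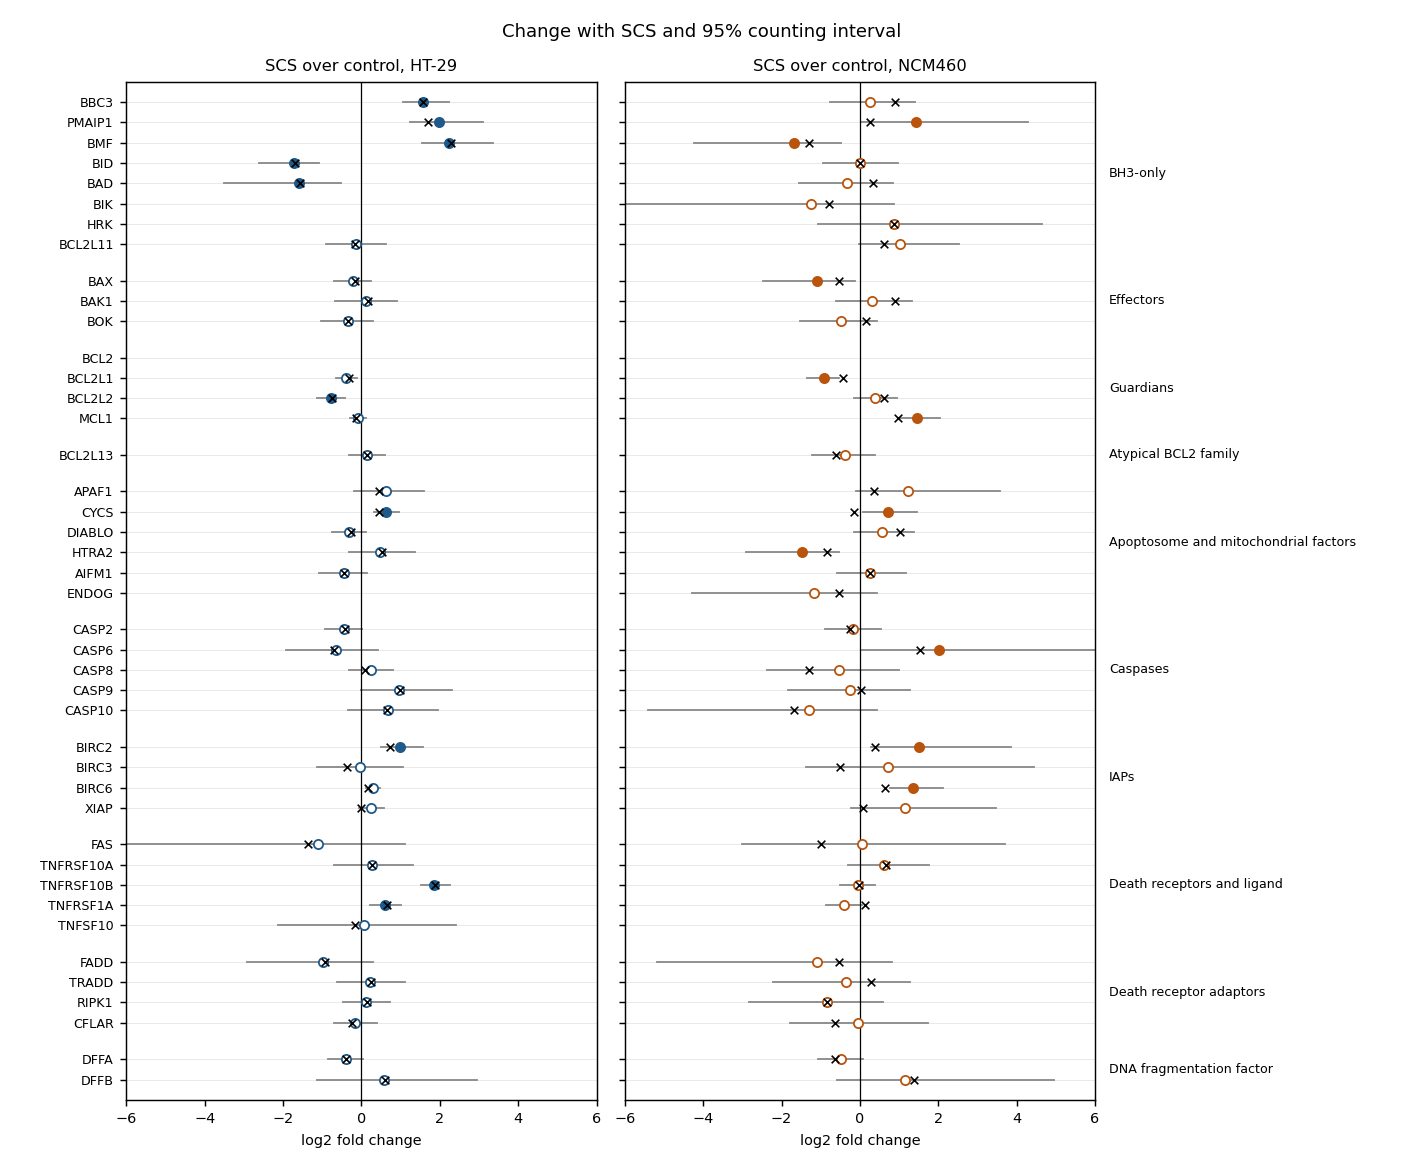
Log2 fold change with SCS (horizontal axis) for each gene in HT-29 and NCM460 cells, with filled points for called genes, open points for the others, crosses for values after the GC trend was subtracted, and lines for 95% counting intervals clipped at 6 (genes not tested have no point). The points of BMF lie at 2.24 in HT-29 cells and -1.69 in NCM460 cells.

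BH3-only proteins sense stress and bind the guardians or effectors. In HT-29 cells 6 of the 8 genes of this class were tested, and 3 rose and 2 fell, with a median of 0.72. BBC3, which encodes PUMA (ENSG00000105327; chromosome 19, 47220822 to 47232766, GRCh38), had 33 fragments (16.1 CPM) in the HT-29 control and 120 (50 CPM) with SCS, a log2 fold change of 1.58 (1.06 to 2.23). BBC3 is among the genes the study listed for their change in these samples, so its value is not independent evidence. PMAIP1, which encodes NOXA, a partner of MCL1 (ENSG00000141682; chromosome 18, 59899948 to 59904306, GRCh38), had 13 fragments (6.35 CPM) in the HT-29 control and 66 (27.5 CPM) with SCS. Its log2 fold change was 1.97 (1.24 to 3.10). BMF, a protein tied to the cytoskeleton in healthy cells (ENSG00000104081; chromosome 15, 40087890 to 40108892, GRCh38), had 13 fragments (6.35 CPM) in the HT-29 control and 80 (33.3 CPM) with SCS, or 2.24 (1.53 to 3.36). All 3 genes were higher in the treated HT-29 library, and their calls held under all 11 alternatives of scaling, prior count, depth, filter, threshold or measure.

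BID, which links death receptors to mitochondria once caspase-8 has cleaved it (ENSG00000015475; chromosome 22, 17734138 to 17774770, GRCh38), had 63 fragments (30.8 CPM) in the HT-29 control and 21 (8.74 CPM) with SCS. This was a fall of the log2 fold change -1.72 (-2.60 to -1.08). BAD, whose activity is held in check by phosphorylation (ENSG00000002330; chromosome 11, 64269830 to 64284704, GRCh38), had 19 fragments (9.29 CPM) in the HT-29 control and 6 (2.50 CPM) with SCS, or -1.58 (-3.51 to -0.51). Both genes were lower in the treated HT-29 library, under all 11 alternatives as well. BAD shares 23.7% of its exon bases with GPR137, and because the strand of the reads is not stated, fragments there cannot be told apart. BCL2L11, which encodes BIM, was not called in HT-29 cells, with 30 and 32 fragments, or -0.13 (-0.90 to 0.63) on the log2 scale. BIK and HRK had at most 1 fragment in either HT-29 library.

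All 8 genes of the class were tested in NCM460 cells, where 1 rose and 1 fell, and the median was 0.13 (0.30 with the GC trend subtracted, -0.01 by the authors' scaling). BMF had 13 fragments (16.7 CPM) in the NCM460 control and 4 (3.70 CPM) with SCS. It fell, with -1.69 (-4.25 to -0.48), and with -1.29 (-3.85 to -0.08) once the GC trend was subtracted. The call was lost by total counts. By the deposited FPKM its value was not lower, at 3.47 and 4.24. PMAIP1 had 3 fragments (3.85 CPM) in the NCM460 control and 15 (13.9 CPM) with SCS. With 3 fragments in the control, its ratio was 3.60 with an interval on the log2 scale of 0.03 to 4.28. It lost its call once the GC trend was subtracted, with DESeq2's size factors, by the authors' scaling and after thinning to equal nuclear totals.

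No other gene of this class was called in NCM460 cells. BBC3 had 13 fragments (16.7 CPM) in the NCM460 control and 22 (20.3 CPM) with SCS, or 0.26 (-0.77 to 1.4), adjusted 0.89. BID had 18 fragments (23.1 CPM) in the NCM460 control and 25 (23.1 CPM) with SCS, or 0.00 (-0.93 to 0.96), adjusted -0.00. For BAD the numbers were 13 and 14 fragments, with -0.32 (-1.56 to 0.84), and with the opposite sign when adjusted (0.33). These 3 genes, which were called in HT-29 cells, thus had intervals that held 0 in NCM460 cells. BCL2L11 had 8 and 25 fragments, with 1.02 (-0.02 to 2.53), adjusted 0.61, BIK had 4 and 1, and HRK had 2 and 7.

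The stretches upstream of the 3 BH3-only genes that rose in HT-29 cells are shown because these genes moved together there. They are RefSeq sequences of GRCh38.p14, 5′ to 3′ on the strand of the gene, for BBC3 at chr19:47232767-47232917 (minus), PMAIP1 at chr18:59899746-59899947 (plus) and BMF at chr15:40108893-40109129 (minus). Bases that overlap annotated exons were left out, and of the 2 windows listed for BMF the one with the start farther upstream was used. Capitals mark the letters TGANTCA (AP-1 element) in BBC3, GGGCGG (GC box) in PMAIP1, and GGGCGG and CCAAT in BMF, read on both strands.
BBC3: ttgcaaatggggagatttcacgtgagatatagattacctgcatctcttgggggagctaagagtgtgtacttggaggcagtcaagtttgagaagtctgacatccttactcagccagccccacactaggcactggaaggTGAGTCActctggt
PMAIP1: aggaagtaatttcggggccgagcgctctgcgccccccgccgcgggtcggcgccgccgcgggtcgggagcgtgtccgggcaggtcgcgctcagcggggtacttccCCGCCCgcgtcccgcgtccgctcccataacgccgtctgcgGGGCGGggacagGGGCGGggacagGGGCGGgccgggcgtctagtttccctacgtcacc
BMF: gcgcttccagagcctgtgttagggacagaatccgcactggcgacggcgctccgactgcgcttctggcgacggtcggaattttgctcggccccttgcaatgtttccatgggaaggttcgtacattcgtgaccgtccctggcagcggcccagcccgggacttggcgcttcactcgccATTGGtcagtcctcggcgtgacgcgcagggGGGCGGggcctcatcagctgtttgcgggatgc
PMAIP1 holds the GC box 4 times, and BMF holds 1 GC box and 1 CCAAT box. Neither TGATGNAA (C/EBP-ATF element) nor GTAAACA (forkhead element) was found in the 250 bases searched of any of the 3 genes. The p53 half-site, searched with no mismatch allowed, was not found there either. Sites with mismatches or outside these bases were not searched for, so their absence is not shown. A CCAAT match in BBC3 lies outside the stretch shown. Of 35116 promoter windows, 42.6% hold GGGCGG, 32.0% CCAAT, 6.57% TGANTCA, 3.14% TGATGNAA, 2.98% GTAAACA and 5.57% the p53 half-site. Of the 42 genes, 34 have a window, and of these 24, 18, 5, 1, 1 and 4 hold the same motifs in at least 1 window. These 34 genes have 62 windows together. Their counts are per gene and the percentages are per window, so the 2 cannot be compared. A match of letters is a description only.

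Effectors form the pores in the outer mitochondrial membrane. None of the 3 was called in HT-29 cells, where the median was -0.23, or 0.04 by total counts only. BAX had 78 fragments (38.1 CPM) in the HT-29 control and 78 (32.5 CPM) with SCS, or -0.23 (-0.70 to 0.24). BAK1 had 26 fragments (12.7 CPM) in the HT-29 control and 33 (13.7 CPM) with SCS, with 0.11 (-0.67 to 0.91), the highest of the class. The lowest was BOK, an effector that acts apart from the guardians, with 43 fragments (21.0 CPM) in the HT-29 control and 39 (16.2 CPM) with SCS and -0.36 (-1.04 to 0.29).

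In NCM460 cells 1 effector was called, and the class median was -0.50, or 0.16 with the GC trend subtracted and 0.13 by total counts only. BAX (ENSG00000087088; chromosome 19, 48954815 to 48961798, GRCh38) had 19 fragments (24.4 CPM) in the NCM460 control and 11 (10.2 CPM) with SCS. It fell, with -1.11 (-2.48 to -0.12), and was not called at -0.53 (-1.9 to 0.46) once the GC trend was subtracted. BAK1 had 16 fragments (20.5 CPM) in the NCM460 control and 28 (25.9 CPM) with SCS, with 0.31 (-0.60 to 1.32), adjusted 0.88. BOK had 20 and 19 fragments, with -0.50 (-1.53 to 0.43), and was above 0 when adjusted (0.16). The BAX call was also lost by total counts, by nuclear counts and after thinning to equal nuclear totals.

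Guardians hold effectors and BH3-only proteins in check. In HT-29 cells the 3 tested were below 0, with a median of -0.39, though 1 of them was above 0 by total counts only. BCL2L2, which encodes BCL-w (ENSG00000129473; chromosome 14, 23298790 to 23311759, GRCh38), had 168 fragments (82.1 CPM) in the HT-29 control and 115 (47.9 CPM) with SCS and fell, with -0.77 (-1.13 to -0.43). This gene is listed with the same values as PABPN1, so its fragments are not certain to be its own. BCL2L1, which encodes BCL-XL (ENSG00000171552; chromosome 20, 31664452 to 31723989, GRCh38), had 240 fragments (117 CPM) in the HT-29 control and 215 (89.5 CPM) with SCS, or -0.39 (-0.66 to -0.12), which is under 1.5-fold. MCL1, a guardian with a short-lived protein (ENSG00000143384; chromosome 1, 150574551 to 150579738, GRCh38), had 361 fragments (176 CPM) in the HT-29 control and 399 (166 CPM) with SCS, with -0.09 (-0.30 to 0.12). BCL2L2 was no longer called by total counts or at a 2-fold threshold.

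In NCM460 cells MCL1 rose and BCL2L1 fell. MCL1 had 39 fragments (50 CPM) in the NCM460 control and 153 (142 CPM) with SCS, or 1.46 (0.98 to 2.04), and 0.98 (0.50 to 1.56) with the GC trend subtracted. It was called under all 11 alternatives. Its locus is listed together with ADAMTSL4-AS1. BCL2L1 had 125 fragments (160.4 CPM) in the NCM460 control and 90 (83.2 CPM) with SCS, with -0.93 (-1.35 to -0.54). With the GC trend subtracted it was at -0.43 (-0.85 to -0.04) and not called, and the call was also lost by total counts and at a 2-fold threshold. It shares 43.0% of its exon bases with ABALON on the other strand. BCL2L2 had 45 fragments (57.8 CPM) in the NCM460 control and 82 (75.8 CPM) with SCS, with 0.38 (-0.15 to 0.95), and was called by total counts and after the GC trend was subtracted, at 0.61 (0.08 to 1.18). BCL2L13, a mitochondrial BCL2 relative with a role in mitophagy, was not called in either line, at 0.14 (-0.31 to 0.61) in HT-29 cells (73 and 95 fragments) and -0.40 (-1.22 to 0.38) in NCM460 cells (28 and 29, adjusted -0.60).

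Apoptosome and mitochondrial factors leave the mitochondria or meet their partners in the cytosol. In HT-29 cells 5 of 6 were tested, and 1 rose, with a class median of 0.47, or -0.15 by FPKM. CYCS, which encodes cytochrome c (ENSG00000172115; chromosome 7, 25120091 to 25125361, GRCh38), had 134 fragments (65.5 CPM) in the HT-29 control and 244 (102 CPM) with SCS, or 0.63 (0.32 to 0.95). It lost this call with the GC trend subtracted, by nuclear counts, at a 2-fold threshold and by FPKM. APAF1, the scaffold of the apoptosome, had 18 fragments (8.80 CPM) in the HT-29 control and 34 (14.2 CPM) with SCS, with 0.63 (-0.18 to 1.60), and was called higher by total counts and after thinning. AIFM1, a mitochondrial flavoprotein, had 53 fragments (25.9 CPM) in the HT-29 control and 45 (18.7 CPM) with SCS, with -0.45 (-1.07 to 0.13), the lowest of the class, and was called lower by nuclear counts and by FPKM. DIABLO (94 and 88 fragments) and HTRA2 (21 and 35), both of which bind IAPs, were not called, and the nuclease gene ENDOG had 1 and 3 fragments.

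CYCS rose in NCM460 cells too, and HTRA2 fell. CYCS had 27 fragments (34.6 CPM) in the NCM460 control and 63 (58.2 CPM) with SCS, or 0.71 (0.08 to 1.46). With the GC trend subtracted its sign turned, at -0.15 (-0.78 to 0.60). The call was also lost with DESeq2's size factors, by the authors' scaling and at a 2-fold threshold. HTRA2, a serine protease (ENSG00000115317; chromosome 2, 74529377 to 74533348, GRCh38), had 23 fragments (29.5 CPM) in the NCM460 control and 10 (9.24 CPM) with SCS, or -1.48 (-2.91 to -0.55), and -0.85 (-2.29 to 0.07) with the GC trend subtracted, which was not called, as by total counts. It shares 36.9% of its exon bases with other genes. DIABLO, listed with the same values as VPS33A, had 23 and 48 fragments and was not called. It was called higher by total counts, by nuclear counts and after the GC trend was subtracted, at 1.01 (0.30 to 1.83). APAF1 had 4 and 16 fragments, with 1.22 (-0.11 to 3.57), adjusted 0.37, AIFM1 had 19 and 32, and ENDOG had 7 and 3. The class median was 0.41, or 0.06 with the GC trend subtracted.

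Caspases are the proteases that carry out apoptosis. CASP8 and CASP10 start the extrinsic route, CASP9 starts the intrinsic route, CASP2 responds to stress at the PIDDosome, and CASP6 is an executioner. None of the 5 was called in HT-29 cells, where the median was 0.24, or -0.12 by FPKM. CASP9 had 10 fragments (4.89 CPM) in the HT-29 control and 25 (10.4 CPM) with SCS, with 0.97 (-0.02 to 2.31), the highest of the class. It was called higher by total counts, by FPKM and with the GC trend subtracted, at 0.99 (0.01 to 2.34). CASP6 had 17 fragments (8.31 CPM) in the HT-29 control and 12 (5.00 CPM) with SCS, with -0.64 (-1.93 to 0.42), the lowest. CASP2 had 83 and 71 fragments, CASP8 48 and 67, and CASP10 11 and 22.

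In NCM460 cells CASP6 (ENSG00000138794; chromosome 4, 109688622 to 109703583, GRCh38) went from 0 fragments to 7 with treatment, at least 1.68-fold higher relative to the floor of 3 fragments per library. Its counting interval began at 0.05 on the log2 scale, and the call was lost with the GC trend subtracted, with DESeq2's size factors, by the authors' scaling and at a mean of at least 5 CPM. The other 4 caspases were below 0 and not called, with a class median of -0.25, but by total counts only 4 of the 5 were above 0 and the median was 0.32. CASP2 had 32 fragments (41.1 CPM) in the NCM460 control and 39 (36.1 CPM) with SCS, with -0.18 (-0.90 to 0.53), adjusted -0.27. CASP8 had 8 fragments (10.3 CPM) in the NCM460 control and 7 (6.47 CPM) with SCS, with -0.53 (-2.36 to 0.99), adjusted -1.29. CASP9 had 8 and 9 fragments, and CASP10 6 and 2.

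IAPs bind caspases or tag them and other proteins with ubiquitin. In HT-29 cells 1 of the 4 was called, and the median was 0.27, or -0.25 by FPKM. BIRC2, which encodes cIAP1 (ENSG00000110330; chromosome 11, 102347211 to 102378670, GRCh38), had 42 fragments (20.5 CPM) in the HT-29 control and 100 (41.6 CPM) with SCS, or 0.99 (0.49 to 1.58). BIRC6, a large ubiquitin ligase (ENSG00000115760; chromosome 2, 32357028 to 32618899, GRCh38), had 392 fragments (192 CPM) in the HT-29 control and 563 (234 CPM) with SCS, or 0.29 (0.10 to 0.48), which is under 1.5-fold. XIAP, a direct caspase inhibitor, had 140 fragments (68.4 CPM) in the HT-29 control and 195 (81.2 CPM) with SCS, with 0.24 (-0.07 to 0.57). BIRC3, which encodes cIAP2, had 15 fragments (7.33 CPM) in the HT-29 control and 17 (7.08 CPM) with SCS, with -0.05 (-1.14 to 1.05). The BIRC2 call was lost at a 2-fold threshold and by FPKM.

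All 4 IAPs were above 0 in NCM460 cells, where the median was 1.24, and 2 rose. With the GC trend subtracted the median was 0.23, 3 of 4 were above 0, and by FPKM BIRC2 and BIRC6 were below 0. BIRC2 had 4 fragments (5.13 CPM) in the NCM460 control and 20 (18.5 CPM) with SCS, or 1.5 (0.27 to 3.86), and 0.39 (-0.84 to 2.74) with the GC trend subtracted, which was not called. BIRC6 had 25 fragments (32.1 CPM) in the NCM460 control and 92 (85.1 CPM) with SCS, or 1.35 (0.76 to 2.11), and 0.63 (0.04 to 1.39) with the trend subtracted. XIAP had 4 fragments (5.13 CPM) in the NCM460 control and 15 (13.9 CPM) with SCS, with an interval of -0.22 to 3.48 and an adjusted value of 0.07, and BIRC3 had 2 and 6 fragments. The IAP transcripts had GC contents of 38.1% (BIRC2), 34.8% (BIRC3), 43.1% (BIRC6) and 39.0% (XIAP), below the 49.8% median of the members tested.

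Death receptors carry the signal of their ligands across the cell membrane. In HT-29 cells 2 of the 5 genes rose, with a class median of 0.26, or -0.16 by FPKM. TNFRSF10B, which encodes DR5, a receptor for TRAIL (ENSG00000120889; chromosome 8, 23020133 to 23069179, GRCh38), had 73 fragments (35.7 CPM) in the HT-29 control and 315 (131 CPM) with SCS, or 1.85 (1.51 to 2.27). The call held under all 11 alternatives. TNFRSF1A, which encodes the TNF receptor TNFR1 (ENSG00000067182; chromosome 12, 6328757 to 6342114, GRCh38), had 81 fragments (39.6 CPM) in the HT-29 control and 145 (60.4 CPM) with SCS, or 0.60 (0.21 to 1.02). This call was lost with DESeq2's size factors, by nuclear counts, by the authors' scaling, at a 2-fold threshold and by FPKM. TNFRSF10A, which encodes DR4, had 16 fragments (7.82 CPM) in the HT-29 control and 23 (9.57 CPM) with SCS, with 0.26 (-0.69 to 1.31). FAS had 4 and 1 fragments, and TNFSF10, which encodes TRAIL, had 4 and 5.

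The class together had 87.0 CPM in the HT-29 control and 203.6 with SCS, and 223.3 and 203.4 in NCM460 cells. None of its genes was called in NCM460 cells. TNFRSF10B had 76 fragments (97.5 CPM) in the NCM460 control and 101 (93.4 CPM) with SCS, with -0.06 (-0.51 to 0.39), adjusted -0.04. TNFRSF1A had 83 fragments (106 CPM) in the NCM460 control and 87 (80.4 CPM) with SCS, with -0.40 (-0.86 to 0.05), and its sign turned when adjusted (0.13). TNFRSF10A had 13 fragments (16.7 CPM) in the NCM460 control and 29 (26.8 CPM) with SCS, with 0.62 (-0.30 to 1.75), adjusted 0.66. FAS had 2 and 3 fragments, and TNFSF10 had 0 in both.

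Adaptors join receptors to caspases and kinases. None of the 4 was called in either line, and the class median was -0.02 in HT-29 cells, or 0.25 by total counts only, and -0.60 in NCM460 cells. TRADD, the adaptor of TNFR1, had 21 fragments (10.3 CPM) in the HT-29 control and 29 (12.1 CPM) with SCS, with 0.22 (-0.63 to 1.12). CFLAR, which encodes the caspase-8 regulator c-FLIP, had 58 fragments (28.4 CPM) in the HT-29 control and 61 (25.4 CPM) with SCS, with -0.15 (-0.70 to 0.39), in a locus listed with AC007283.5. FADD had 12 and 6 fragments in HT-29 cells, and RIPK1, a kinase of the TNFR1 complex, had 43 and 55. In NCM460 cells the adaptors had few fragments: CFLAR 6 and 8, RIPK1 9 and 6, TRADD 7 and 7, and FADD 5 and 2. Of the adaptors with a mean of 5 CPM or more, RIPK1 was the lowest there, at -0.83 (-2.83 to 0.60), adjusted -0.85, and CFLAR the highest, at -0.05 (-1.77 to 1.75), adjusted -0.65. FADD shares 54.9% of its exon bases with other genes.

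The DNA fragmentation factor cuts nuclear DNA once caspases release its nuclease from an inhibitor. DFFA, which encodes the inhibitor, had 88 fragments (43.0 CPM) in the HT-29 control and 78 (32.5 CPM) with SCS, with -0.40 (-0.86 to 0.05), and 54 fragments (69.3 CPM) in the NCM460 control and 53 (49.0 CPM) with SCS, with -0.48 (-1.07 to 0.07). It was not called in either line by the main scaling. In HT-29 cells it was lower by the deposited FPKM, at -1.08, a measure that has no counting interval. In NCM460 cells it was called lower by the authors' scaling, after thinning to equal nuclear totals and with the GC trend subtracted, at -0.65 (-1.24 to -0.09). DFFB, the nuclease gene, was not called. Its fragments numbered 4 and 8 in HT-29 cells. In NCM460 cells it had 2 fragments (2.57 CPM) in the NCM460 control and 9 (8.32 CPM) with SCS, with 1.15 (-0.58 to 4.95), adjusted 1.38.

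The response of 37 genes could be compared between lines as the change in HT-29 cells minus that in NCM460 cells. This asks whether a gene moved by a different amount in HT-29 cells than in NCM460 cells. The 2 changes share no library, and the interval covers counting error of 4 libraries, so it is not a test between conditions. Of the 37, 6 were called higher (16.2%, beside 12.4% of 10855 loci) and 6 lower (16.2%, beside 16.8%). With the GC trend subtracted, 4 were higher (10.8%, beside 9.08% of 10773 loci) and 6 lower (16.2%, beside 12.3%). These shares lay near those of all loci. The median was -0.11, and that of all loci was also -0.11. With the GC trend subtracted the median was 0.09 for the members and -0.05 for all loci.

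BMF differed by 3.92 (2.56 to 6.79), the largest difference of the 37, and by 3.57 (2.20 to 6.43) with the GC trend subtracted. TNFRSF10B differed by 1.91 (1.35 to 2.53), and by 1.9 (1.33 to 2.52) with the trend subtracted. HTRA2 differed by 1.95 (0.73 to 3.67), and CASP10, with 2 to 22 fragments per library, by 1.98 with an interval that began at 0.00. These 4 genes were called higher with and without the GC trend. BBC3, at 1.32 (0.07 to 2.57), and TNFRSF1A, at 0.99 (0.40 to 1.63), were called higher only before the trend was subtracted. The change was lower in HT-29 cells than in NCM460 cells for BID, at -1.72 (-3.05 to -0.59), BCL2L2, at -1.15 (-1.83 to -0.51), and MCL1, at -1.55 (-2.17 to -1.02). DIABLO was at -0.87 (-1.82 to -0.03), and BIRC6 was at -1.06 (-1.84 to -0.43), a call that was lost with the GC trend subtracted. For CASP6, at 0 in the NCM460 control, the difference was called lower, with an interval that reached -0.45. BAD was called lower only after the GC trend was subtracted, at -1.91 (-4.17 to -0.26).

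The controls compare the lines before treatment, so the values below are HT-29 over NCM460. Cell lines carry their own thresholds for apoptosis, set in part by the balance of guardians, IAPs and receptors. Of 40 genes tested, 8 were higher in HT-29 cells (20%, beside 25.3% of 12699 loci) and 7 lower (17.5%, beside 23.1%). With the GC trend subtracted, 8 were higher (20%, beside 18.7% of 12609 loci) and 5 lower (12.5%, beside 19.2%). The shares were thus below or near those of all loci. By total counts, 23 members were higher and 1 lower, and 6329 and 1107 of all loci, in place of 3212 and 2932, with the median of all loci moved by 1.04. By nuclear counts the median moved by 0.32, with 4094 loci higher and 2196 lower, and 12 members higher and 5 lower. By the authors' scaling it moved by -0.12, with 7 members higher and 9 lower, and 2779 and 3276 among all loci.

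Among the 27 genes at a mean of at least 10 CPM, XIAP was the farthest above 0. It had 140 fragments (68.4 CPM) in HT-29 cells and 4 (5.13 CPM) in NCM460 cells, or 3.42 (2.35 to 5.63), and 2.09 (1.02 to 4.30) with the GC trend subtracted. BIRC6 was at 2.53 (2.0 to 3.22), and at 1.65 (1.11 to 2.34) with the trend subtracted. MCL1 was at 1.79 (1.34 to 2.33), and at 1.21 (0.76 to 1.75) with the trend subtracted. Each of these 3 genes was called higher under all 11 alternatives. BIRC2, at 1.74 (0.54 to 3.94), and CFLAR, at 1.71 (0.67 to 3.38), were called higher only without the GC trend (adjusted 0.36 and 0.97), and by FPKM BIRC2 was below 0. CYCS was at 0.89 (0.31 to 1.57), and its sign turned when adjusted (-0.17). Its call was also lost at a 2-fold threshold and by FPKM. CASP8, at 1.09 (0.10 to 2.48), adjusted 0.15, lost its call with the trend subtracted, with DESeq2's size factors, by the authors' scaling and after thinning. With the trend subtracted 4 further genes were called higher. They were BAX, at 0.62 (-0.09 to 1.45) and adjusted 1.30 (0.60 to 2.14), DIABLO, at 0.61 (-0.03 to 1.36) and 1.09 (0.44 to 1.84), BBC3, at -0.04 (-1.01 to 1.00) and 1.07 (0.10 to 2.11), and BCL2L2, at 0.50 (0.03 to 1.02) and 0.76 (0.29 to 1.28). CASP6 had 17 fragments against 0, which against the floor of 3 fragments is at least 2.16-fold higher. Its interval began at 0.65, or 0.07 when adjusted, and the call was lost after thinning and at a mean of 5 CPM or more.

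Among the same 27 genes TNFRSF10B was the farthest below 0, with 73 fragments (35.7 CPM) against 76 (97.5 CPM), or -1.42 (-1.93 to -0.97), and -1.35 (-1.87 to -0.90) with the GC trend subtracted. TNFRSF1A was at -1.4 (-1.89 to -0.97), and at -0.81 (-1.30 to -0.38) with the trend subtracted. Both calls were lost by total counts. Also lower were HTRA2, at -1.41 (-2.45 to -0.61), adjusted -0.61, and BMF, at -1.22 (-2.62 to -0.17), adjusted -0.82. Both lost their calls once the trend was subtracted and by total counts, and BMF also by nuclear counts, after thinning and by FPKM. TNFRSF10A was at -0.97 (-2.24 to 0.08), adjusted -0.89, and not called. It was called lower with DESeq2's size factors, by the authors' scaling and by FPKM. DFFA was lower, at -0.67 (-1.19 to -0.17), adjusted -0.84. Its call was lost by nuclear counts, after thinning, at a 2-fold threshold and by total counts, where its sign turned. BIK had 0 fragments against 4, which against the floor of 3 fragments is at least 3.50-fold lower in HT-29 cells. Its interval reached -0.79, or -0.31 when adjusted, and the call was lost by total counts, after thinning and at a mean of 5 CPM or more. ENDOG, with 1 against 7, had a ratio of 0.0544 and an interval on the log2 scale of -9.69 to -1.24 (adjusted -8.61 to -0.16), and was not tested at a mean of 5 CPM or more. Before treatment, the receptors TNFRSF10B and TNFRSF1A were thus lower in HT-29 cells and 3 of the 4 IAPs were higher. Of these IAPs, BIRC6 and XIAP were still higher with the GC trend subtracted. BAX, DIABLO, BBC3 and BCL2L2 were also higher after that step, and by the main scaling they were not called without it.

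**Figure D4:**
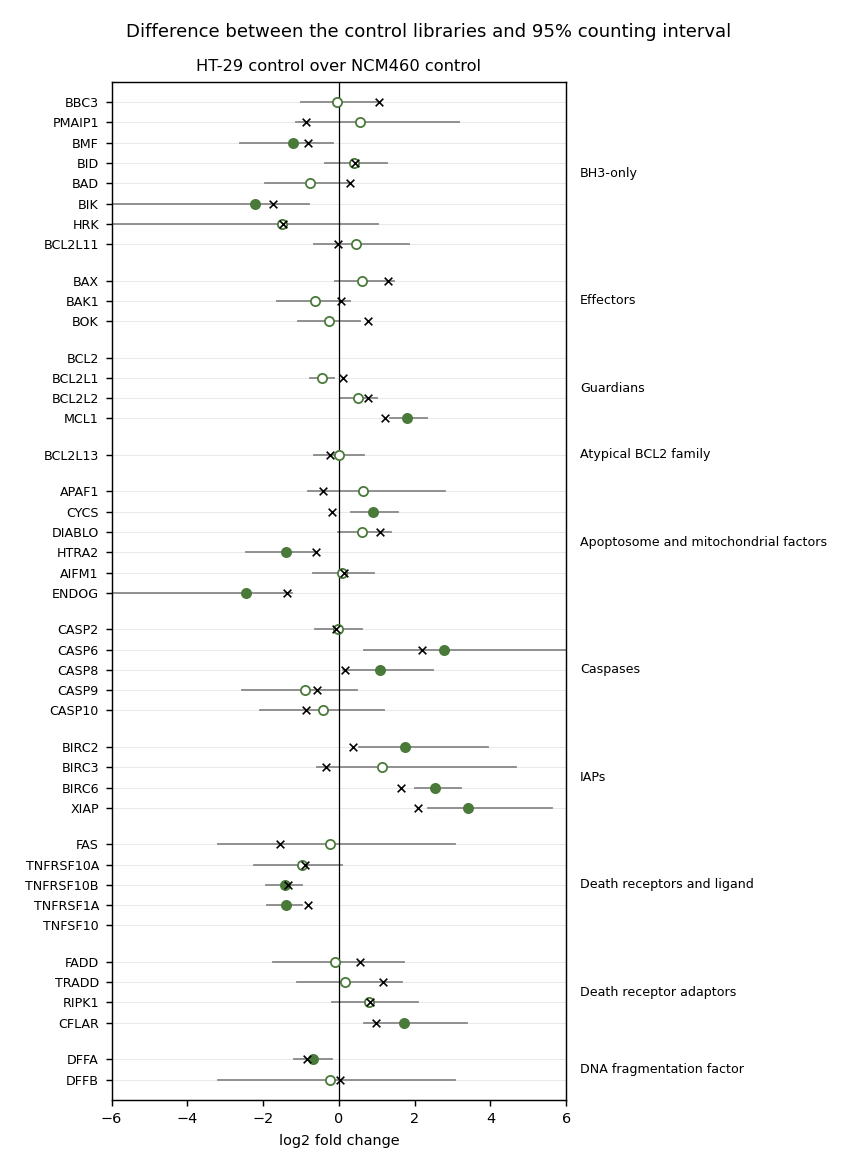
Log2 fold change of the HT-29 control over the NCM460 control (horizontal axis) for each gene, with filled points for called genes, open points for the others, crosses for values after the GC trend was subtracted, and lines for 95% counting intervals. Of the genes with a mean of 10 CPM or more, XIAP and BIRC6 are the farthest above 0, and TNFRSF10B and HTRA2 the farthest below.

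In a fit of a change shared by both lines, chosen after seeing the data and with 1 residual degree of freedom, edgeR called 0 of 37 members at an FDR of 0.05. PMAIP1 alone had an unadjusted p under 0.05 in edgeR (log2 fold change 2.0, p 0.00977, FDR 0.613). Over the 10855 loci that edgeR tested, it called 8, and 651 had an unadjusted p under 0.05. DESeq2 was given all 18668 loci with its own filter, and called 37 loci and 0 members. This fit takes the difference between the lines as its only measure of spread.

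A list of other genes of the pathway held 60 names, of which 53 had fragments in at least 1 library. In HT-29 cells 46 were tested, 11 rose (23.9%, beside 16.8% of all loci) and 6 fell (13%, beside 14.8%), with a median of 0.30. RBCK1, which encodes HOIL-1 of the linear ubiquitin complex, rose from 230 to 1182 fragments, with 2.12 (1.93 to 2.34). CASP4, an inflammatory caspase, rose from 53 to 189 fragments, with 1.57 (1.16 to 2.07), and had 0 in both NCM460 libraries. TRAF1, a TNF receptor adaptor, had 0 and 7 fragments, which against the floor is at least 1.99-fold higher, and its interval on the log2 scale began at 0.30. TNFRSF25, a death receptor in a locus listed with PLEKHG5, rose from 11 to 36, with 1.34, and DEDD from 19 to 56, with 1.25. DEDD2, RIPK3, RNF31, CYLD and USP8 also rose, and USP8 lost its call with the GC trend subtracted. RIPK3 is listed with ADCY4 and RNF31 with IRF9, so their fragments are not certain to be their own.

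Among the falls, PARP1, a DNA repair enzyme that caspases cleave, went from 337 to 68 fragments, with -2.50 (-2.94 to -2.16). BIRC5, which encodes survivin, went from 79 to 26, with -1.75 (-2.53 to -1.18). PARP1 and BIRC5 are also among the genes the study listed for their change, so they are not independent evidence. CRADD, an adaptor of CASP2, had 5 and 0 fragments, which against the floor is at least 1.96-fold lower, and its interval reached -0.11. VDAC3 and VDAC1, pores of the outer mitochondrial membrane, had -1.09 and -0.80, and API5 also fell. In NCM460 cells 43 were tested, 5 rose (11.6%, beside 15.3% of all loci) and 6 fell (14.0%, beside 13.7%), and the median was -0.20. After the GC trend was subtracted, TNFRSF25 rose, and BAG3 and BNIP3L fell. USP9X, a deubiquitinase that acts on MCL1, went from 17 to 74 fragments, with 1.56 (0.87 to 2.50), though it is listed with a further gene and had no GC value. BAG4 went from 6 to 26, with 1.41 (adjusted 0.41), and the deubiquitinase gene OTULIN from 7 to 29, with 1.38 (adjusted 0.70). CYLD, with 1 and 13 fragments, had a ratio of 9.37 and an interval on the log2 scale of 0.49 to 8.64, and USP8, with 3 and 15, a ratio of 3.60 (0.03 to 4.28), with adjusted values of 1.02 and 0.44. TRAF2, another TNF receptor adaptor, went from 19 to 8, with -1.48 (adjusted -0.84), and BAG3, a co-chaperone, from 88 to 51, with -1.22 (-1.79 to -0.75), adjusted -0.72. DEDD2, NOL3, RNF31 and RBCK1 had -1.10, -1.07, -0.99 and -0.89, adjusted -0.45, -0.42, -0.56 and -0.24. Of these genes with adjusted values, all but BAG3 lost their calls with the GC trend subtracted.

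Genes of the group lie side by side at several places in GRCh38. CFLAR, CASP10 and CASP8 are on chromosome 2, from 201116104 to 201287711. None of these 3 genes was called with SCS in either line. BIRC3 and BIRC2 are neighbours on chromosome 11, from 102317450 to 102378670, and of these BIRC2 alone was called, in both lines. TNFRSF10B and TNFRSF10A lie on chromosome 8, and of these TNFRSF10B alone was called, in HT-29 cells. BCL2L13 and BID are neighbours on chromosome 22, from 17628855 to 17774770, and of these BID alone was called, in HT-29 cells. The sign of the FPKM ratio was opposite to that of the fragment change for 9 of 38 genes in HT-29 cells, none of them called, and for 8 of 40 in NCM460 cells, among them the called genes BMF, BIRC2 and BIRC6.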

How the data were processed

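RNA-seq was available for 4 libraries, 1 per condition. The authors deposited a count column whose values are a scaled signal and not whole counts, and FPKM values, which the authors scaled by transcript length and library size. The design had assumed counts or reads recovered from them. Each deposited signal was divided by the worth of 1 fragment in its library (0.686 and 0.577 for HT-29 cells, control first, and 2.04 and 1.33 for NCM460 cells). Of the values above 0, 99.8%, 99.8%, 99.8% and 99.9% then came out within 0.02 of a whole number and were rounded. The table has 64962 entries, of which 21550 are above 0. The 26 without a gene name were dropped, and held 0.0205%, 0.0352%, 0.00581% and 0.0125% of the fragments. Genes with identical values in every column were merged, those with under 20 fragments only where they lay within 50000 bases of each other. This gave 18668 loci, of which 1803 hold more than 1 gene.

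Per the submitters' processing notes, reads were handled with bcl2fastq 2.17.1.14, cutadapt 1.9.1, Bowtie2 and HTSeq 0.6.1 on hg19, while the study's text names Cuffdiff and the coordinates in the table are those of GRCh38. GC content came from GENCODE release 29, in which 98.6% of loci were found. Scaling used TMM factors from edgeR, computed on the 4 libraries together (1.24, 1.50, 0.578 and 0.935). With a single library per condition, neither edgeR nor DESeq2 could fit its count test inside a line, so no genes were called by a count test there. A fit of a change shared by both lines was run in both tools. A lowess trend on GC content had a span of 0.3. The difference between lines has a conditional exact interval of the odds ratio. The method was tested on simulated data.

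The alternatives were total nuclear counts only, total counts only, DESeq2's size factors, the authors' scaling, a prior count of 0.5, thinning to equal nuclear totals, no filter on level, a mean of at least 5 CPM, a 2-fold threshold, the GC trend and the deposited FPKM with a pseudocount of 0.5. The shared fit was chosen after seeing the data. The strand of the reads is not stated, so antisense and overlapping fragments cannot be told apart. Members and lists were chosen with earlier results of these data known. Full values were given for each member called with SCS in either line, for BBC3 and BAD, and for the highest and lowest member of each class at a mean of at least 5 CPM. Between controls the 5 highest and 5 lowest members at a mean of at least 10 CPM were named, and of the other pathway genes the called ones, up to 5 rises and 5 falls per line. Further genes were named after their values were seen. Promoter sequences are from RefSeq. Tools were Python 3.11.15, pandas 2.3.3, numpy 2.4.6, scipy 1.17.1, statsmodels 0.14.6, matplotlib 3.10.9, R 4.3.3, edgeR 4.0.16 and DESeq2 1.42.0.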

Additional observations from a re-analysis of the deposited data

Results flagged for a closer look

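BMF moved in opposite directions in the cell lines. It had 13 fragments in the HT-29 control and 80 with SCS, and 13 in the NCM460 control and 4 with SCS. On the log2 scale it rose in HT-29 cells, by 2.24 (1.53 to 3.36), and changed by -1.69 in NCM460 cells (-4.25 to -0.48). The change in HT-29 cells minus that in NCM460 cells was 3.92 on the log2 scale, with a counting interval of 2.56 to 6.79. With 1 library per condition the difference was not tested. By total counts the call in NCM460 cells was lost. By the deposited FPKM, the value was 1.5 in HT-29 cells and 0.26 in NCM460 cells, so both were above 0.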

How the results depend on the processing

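Of the values of the genes named by rule (between the controls, the 5 highest and 5 lowest) under 11 alternatives, 665 stayed within their counting interval, 33 moved outside it, and 5, all of called genes, turned direction. A further 32 values of genes that were not called changed sign. Outside this tally, called genes also turned between the controls, CYCS with the GC trend subtracted and DFFA by total counts. Of the counts and medians, 81 stayed near the main value and 22 did not. The cause was not tested for any of them.

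By total counts only, the median log2 fold change of the members was 0.38 in HT-29 cells, 0.56 in NCM460 cells and 1.07 between the controls. In that setting 16 members were higher and 0 lower in NCM460 cells, and 23 were higher and 1 lower between the controls. By nuclear counts, 5 members were lower in HT-29 cells. With DESeq2's size factors, and likewise by the authors' scaling, 3 were higher in NCM460 cells. At a 2-fold threshold, 4 were higher in HT-29 cells, beside 1227 of 12179 loci. Thinned to equal nuclear totals, 4 were lower between the controls, beside 2462 of 13080 loci. With the GC trend subtracted, 2 were lower in NCM460 cells, and CYCS turned to -0.15 there.

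By the deposited FPKM, 11 members were lower in HT-29 cells, 15 in NCM460 cells and 17 between the controls, and 5, 7 and 7 were higher. All loci split alike into 3406 lower and 2425 higher, 4943 and 3027, and 5679 and 3367. Members had medians of -0.25 in HT-29 cells and -0.45 between the controls. This measure has no counting interval, so calls rest on the fold alone. On it BMF was at 0.26, BIRC2 at -0.19 and BIRC6 at -0.0202 in NCM460 cells, and BIRC2 was at -0.78 between the controls. FPKM moved the median of all loci by -0.18 in HT-29 cells, -0.33 in NCM460 cells and -0.47 between the controls. The edgeR fit of a change shared by both lines, chosen after seeing the data, called 0 higher and 0 lower.

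Single genes were limited by depth. The median number of fragments per member was 31.5 and 42 in the HT-29 libraries, control first, and 11 and 15 in the NCM460 libraries. No replicate could be left out, because there was 1 library per group, and the shared fit paired the libraries by line. A mean of at least 5 CPM gave no value for CASP6 in NCM460 cells.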
